A study of Mus musculus with 4 samples.

Results

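Mitochondrial biogenesis regulators are the nuclear-encoded proteins that set how much mitochondrial machinery a cell makes. They were described here as a fixed set of 10 genes. These include the coactivators Ppargc1a and Ppargc1b, and the transcription factors Nrf1, Gabpa, Esrra and Ppara. The rest act inside the organelle: Tfam, Tfb2m and Polrmt in transcribing mitochondrial DNA, and Tfb1m in modifying ribosomal RNA. All 10 were chosen by name, with the brightest feature per symbol, out of 19505 distinct gene symbols on the array. The platform annotation gave 9 of the 10 a feature, 1 each, and Esrra was not analysed here.

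The cells were CD8+ T cells from spleens and lymph nodes of C57BL/6 mice, called C57/BL6 in the labels. In both groups they were activated for 3 days with beads carrying antibodies to CD3 and CD28, in medium with interleukin 2, so control and treated cells share the stimulus and the cytokine. The control group was left untreated, and the other group received 25 µM spermidine, a natural polyamine, in the medium. Each group has 2 biological replicates, hybridised to Clariom S Mouse arrays from 250 ng of total RNA; the labels name no animal, sex, age, pooling or separate culture for a replicate. The comparison asks what spermidine in the medium does to the transcripts of CD8+ T cells during activation.

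A mitochondrion carries its own small circular genome, but nearly all of its proteins are encoded in the nucleus. The PGC-1 coactivators, products of Ppargc1a and Ppargc1b, bind no DNA themselves and act through factors such as NRF-1 (Nrf1), GABP (of which Gabpa is the DNA-binding subunit), ERR-alpha (Esrra) and PPAR-alpha (Ppara), which switch on respiratory chain, import and fatty acid oxidation genes. NRF-1 and GABP also act on the genes of the organelle's own transcription machinery, in which the polymerase POLRMT is placed on the promoters of mitochondrial DNA by TFAM and TFB2M. Activation of a T cell is known to bring a wave of mitochondrial growth. The gene Nrf1 of this set is nuclear respiratory factor 1, a different gene from Nfe2l1, whose product is also called Nrf1, and GABP, at times called NRF-2, is not the antioxidant factor encoded by Nfe2l2.

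Promoter stretches are shown for 4 members, those whose control and spermidine arrays did not overlap (Nrf1, Tfam and Polrmt) and, for contrast, Tfb2m, which works with Tfam and Polrmt and whose groups overlapped. The sequences are RefSeq promoters of build GRCm38.p6, from 150 bases before to 30 bases after the annotated start, read 5′ to 3′ on the gene's strand. Capitals mark a match to either of 2 motifs searched on both strands, GCGCATGCG for NRF-1 and CCGGAAG for GABP. The stretches lie at chr10:71238015-71238194 (minus strand) for Tfam, chr10:79746552-79746731 (minus strand) for Polrmt, chr1:179546247-179546426 (minus strand) for Tfb2m and chr6:30047838-30048017 (plus strand) for Nrf1.
Tfam: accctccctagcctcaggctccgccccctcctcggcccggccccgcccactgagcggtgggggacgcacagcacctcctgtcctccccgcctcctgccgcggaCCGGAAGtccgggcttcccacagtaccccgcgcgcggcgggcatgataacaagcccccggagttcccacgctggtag
Polrmt: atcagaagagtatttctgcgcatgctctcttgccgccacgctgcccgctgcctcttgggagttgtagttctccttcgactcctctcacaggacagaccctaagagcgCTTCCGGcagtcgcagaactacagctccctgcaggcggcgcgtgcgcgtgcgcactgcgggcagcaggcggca
Tfb2m: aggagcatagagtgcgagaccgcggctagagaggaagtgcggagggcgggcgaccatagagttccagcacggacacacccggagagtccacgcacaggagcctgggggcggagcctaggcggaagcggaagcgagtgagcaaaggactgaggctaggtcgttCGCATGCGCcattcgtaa
Nrf1: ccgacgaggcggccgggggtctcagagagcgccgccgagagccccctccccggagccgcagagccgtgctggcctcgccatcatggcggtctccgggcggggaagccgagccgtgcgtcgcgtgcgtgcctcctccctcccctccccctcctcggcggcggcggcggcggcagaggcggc

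In the Tfam promoter the GABP motif begins at position -47, counting back from the start. In the Polrmt promoter it is read from the opposite strand and begins at position -43. The NRF-1 motif of Tfb2m, also read from the opposite strand, begins at position 13 after the start. In the full windows of 250 bases before to 50 bases after the start, 9 of the 10 members had an entry, with 2 windows for Nrf1. The GABP motif was found in 3 members (Gabpa, Tfam and Polrmt) and in 8.86% of all 32851 promoters. The NRF-1 motif, as the exact letters GCGCATGCG, was found in 2 members (Tfb2m and Ppara) and in 1.75% of all promoters. In Ppara the match is a palindrome read on both strands, so it counts as 2 overlapping matches at 1 place. The remaining motif searched, AAGGTCA, the half-site of ERR-alpha and other nuclear receptors, was found in 0 members and in 4.72% of all promoters. These matches describe the exact letters in the windows only. Variant forms of the motifs were not searched, so a member without a match may still hold a site.

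No member passed the test across all features. Of the 22206 gene features, 0 had an adjusted p under 0.05 (limma, Benjamini-Hochberg; 0% called), and so 0 of the 9 members did. Without adjustment 1558 features had a p under 0.05, among them 1 member that was lower, Nrf1, and 1 that was higher, Polrmt. The 9 members had a median log2 difference, spermidine minus control, of -0.07, against -0.01 over all gene features. The range ran from -0.53 for Nrf1 to 0.83 for Polrmt. Of the 9 values 7 were below 0, where this held for 11305 of the 22206 gene features. Both spermidine arrays lay below both control arrays in 2 members, Nrf1 and Tfam, or 22.2% of the 9, where this held for 18.4% of all features. They lay above both control arrays in 1 member, Polrmt, or 11.1%, where it held for 18.3% of all features. Neither share is far from that of all features, so nothing is read from them. Leaving out control replicate 2 gave a median of -0.31, and leaving out spermidine replicate 1 gave -0.24.

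**Figure D1:**
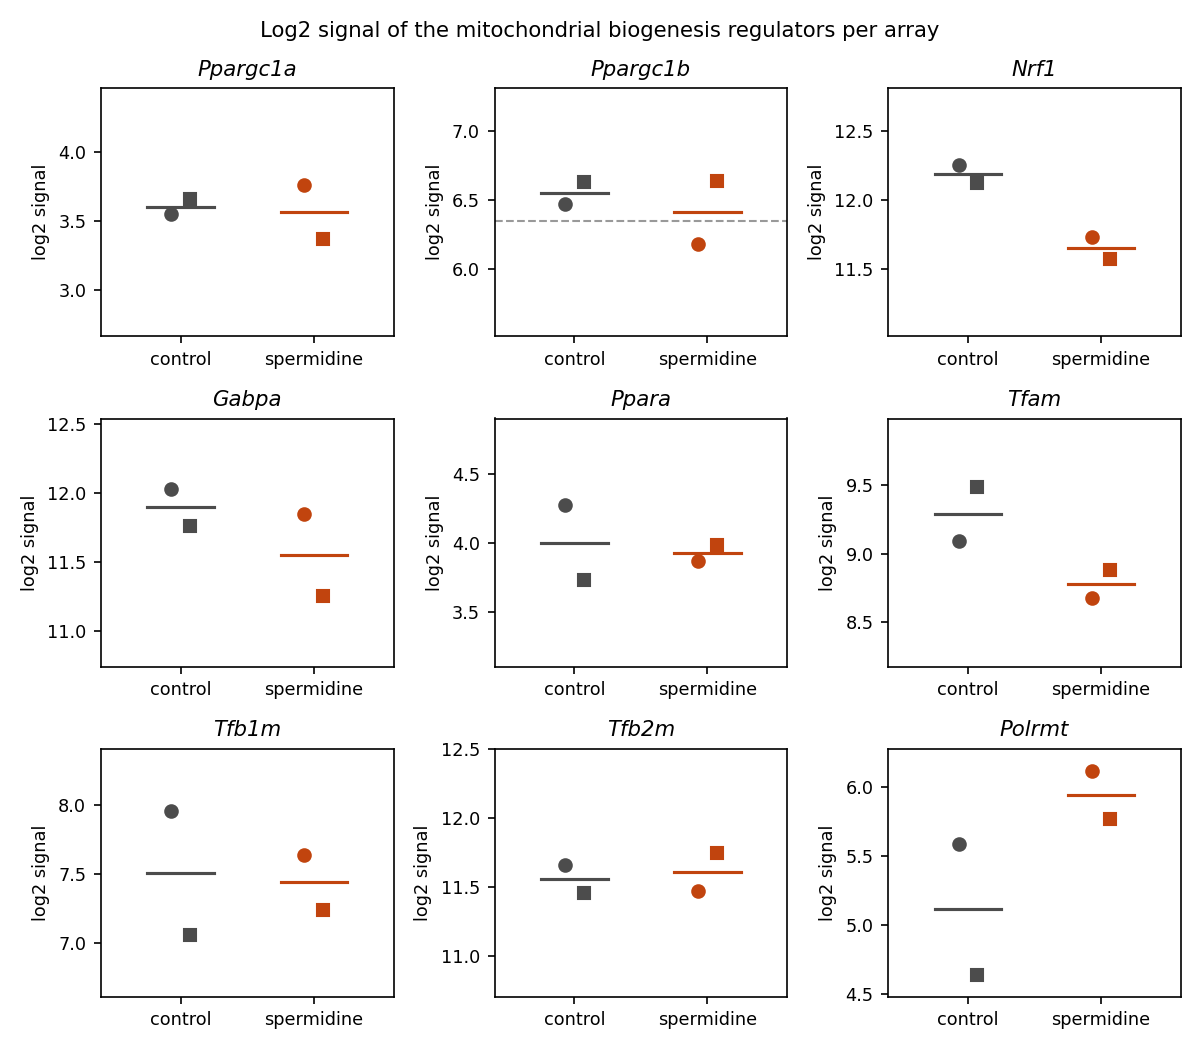
Log2 signal (vertical axis, a span of 1.8 units in every panel) of the 9 measured members in 2 control arrays (grey) and 2 spermidine arrays (orange); circles are replicate 1, squares replicate 2, and bars group means, and the dashed line in the Ppargc1b panel is the background percentile of 6.35. Groups are apart in Nrf1, Tfam and Polrmt and overlap in the other 6 panels.

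The signals are log2 values, and their floor on these arrays can be read from 23 background features that match no genomic sequence. The 95th percentile of those features averaged 6.35 over the arrays, and 12544 of the 22206 gene features lay below it on all 4 arrays. Differences of signals below that level are compressed and are no measure of the fold. Among the members, 5 lay above it on all 4 arrays (Nrf1, Gabpa, Tfam, Tfb1m and Tfb2m), 3 lay below it on all 4 (Ppargc1a, Ppara and Polrmt), and Ppargc1b was above it on 3. A signal called at background here lies under this percentile. The percentile is taken over only 23 features and lies near the brightest of them, so a signal under it may still exceed most of them.

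The coactivators showed no difference that exceeded their spread. Ppargc1a, which encodes PGC-1-alpha, the member best known for driving mitochondrial growth in muscle and brown fat, had log2 signals of 3.55 and 3.66 in control arrays, against 3.76 and 3.37 in spermidine arrays. All 4 values sat at background and the groups overlapped. The difference was -0.04 ± 0.24 (SE), with a 95% interval from -0.60 to 0.51.

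Ppargc1b, which encodes PGC-1-beta, had log2 signals of 6.47 and 6.63 without spermidine and 6.18 and 6.64 with it. The second spermidine array held the highest and the first the lowest of the 4 values. The difference of -0.14 ± 0.25 (SE) had a 95% interval from -0.71 to 0.44, and its sign turned without spermidine replicate 1 (0.09).

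Of the DNA-binding factors, Nrf1 stood furthest apart. NRF-1 is a homodimer that binds GC-rich sites in the promoters of respiratory chain and import genes. Its log2 signal was 12.25 and 12.12 in control arrays, against 11.73 and 11.57 in spermidine arrays. Both spermidine values were below both control values, and the arrays of each group lay close together, so that the means differed by 3.46 times the wider of the 2 replicate gaps. The difference was -0.53 ± 0.22 (SE), 1.45-fold lower with spermidine between the group means, with a 95% interval from -1.05 to -0.02. The unadjusted p was 0.0441 and the adjusted p 0.706 (limma, Benjamini-Hochberg), so Nrf1 did not pass. Its values ran from -0.61 to -0.46 when each array was left out in turn. At an unadjusted p under 0.05, 3.64% of all features were lower and 3.38% higher, and 10.4% of features had an absolute difference at least as large.

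Gabpa, the DNA-binding subunit of GABP, had log2 signals of 12.03 and 11.76 without spermidine and 11.85 and 11.25 with it. The second spermidine array was low and the first lay between the control arrays. The difference was -0.34 ± 0.27 (SE), with a 95% interval from -0.97 to 0.29. It came to -0.04 without spermidine replicate 2, -0.20 without control replicate 1 and -0.64 without spermidine replicate 1, so single arrays set its size.

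GABP works as a complex of Gabpa with a beta subunit that carries the activation domain. The beta subunit gene Gabpb1 had log2 signals of 10.81 and 10.55 in control arrays, against 10.85 and 10.04 in spermidine arrays, and its groups overlapped. Its difference was -0.23 ± 0.30 (SE). The second beta subunit gene, Gabpb2, had signals of 10.14 and 9.94 against 9.78 and 9.80 with spermidine, without overlap, and a difference of -0.25 ± 0.22 (SE; adjusted p = 0.855, limma, Benjamini-Hochberg).

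Ppara, the fatty acid-sensing nuclear receptor, was at background on every array. Its log2 signals were 4.28 and 3.73 in control arrays, against 3.87 and 3.99 in spermidine arrays. Both spermidine values fell between the control values, and the difference was -0.07 ± 0.26 (SE). Without control replicate 1 the sign turned (0.20).

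The members that act inside the organelle, Tfam, Tfb1m, Tfb2m and Polrmt, did not lie on one side. Tfam, which bends and packages mitochondrial DNA and opens its promoters, had log2 signals of 9.09 and 9.48 in control arrays, against 8.68 and 8.88 in spermidine arrays. Both spermidine arrays were below both control arrays, and the means differed by 1.30 times the wider replicate gap, that of the controls. The difference of -0.51 ± 0.24 (SE) is 1.42-fold lower with spermidine between the group means, with a 95% interval from -1.07 to 0.05. The unadjusted p was 0.0700 and the adjusted p 0.733 (limma, Benjamini-Hochberg), so Tfam did not pass. The value was -0.31 without control replicate 2 and -0.70 without control replicate 1.

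Tfb1m, a methyltransferase that modifies the ribosomal RNA of the small mitochondrial subunit, had log2 signals of 7.96 and 7.06 in control arrays, against 7.64 and 7.24 in spermidine arrays. The control arrays enclosed both spermidine arrays. The difference was -0.07 ± 0.33 (SE), and single control arrays turned it: -0.52 without control replicate 2 and 0.38 without control replicate 1. Its sign also turned without spermidine replicate 2 (0.13).

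Tfb2m, the factor that melts the promoter for POLRMT, had log2 signals of 11.66 and 11.46 without spermidine and 11.47 and 11.75 with it. The groups overlapped, with a difference of 0.05 ± 0.23 (SE) and a 95% interval from -0.49 to 0.59. Its sign turned without control replicate 2 (-0.052) and without spermidine replicate 2 (-0.0925).

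Polrmt, the single-subunit RNA polymerase of the organelle, was the member with the largest difference and stayed below the background percentile on all 4 arrays. Its log2 signals were 5.59 and 4.64 in control arrays, against 6.12 and 5.77 in spermidine arrays. Both spermidine arrays were above both control arrays, but the control arrays lay 0.955 apart, more than the group difference of 0.83 ± 0.34 (SE). The adjusted p was 0.706 (limma, Benjamini-Hochberg; unadjusted p = 0.0384), so Polrmt did not pass. Its value was 0.35 without control replicate 2 and reached 1.31 without control replicate 1, and as a signal at background it gives no fold.

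**Figure D2:**
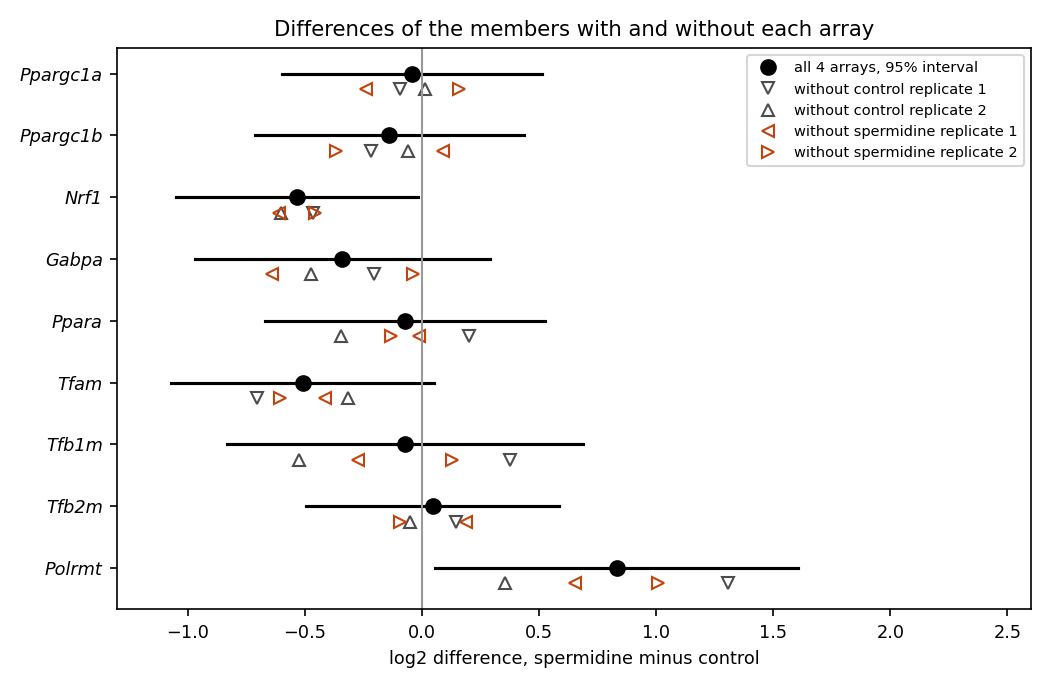
Log2 difference, spermidine minus control (horizontal axis), of the 9 measured members; black dots use all 4 arrays and bars are 95% intervals of limma, while open triangles show the value when the named array is left out. Only Nrf1, Gabpa, Tfam and Polrmt kept 1 sign in all 4 such values, and the interval of Tfam includes 0 while those of Nrf1 (-1.05 to -0.02) and Polrmt (0.06 to 1.61) do not.

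By the pattern over the 4 arrays, after subtracting from each feature its own mean, the named genes nearest to Nrf1 were Rab6b, Dolpp1 and Apol7e, which deviated from it by at most 0.019, 0.019 and 0.030 log2 units on any array. Dolpp1, for example, had log2 signals of 8.57 and 8.40 in control arrays, against 8.03 and 7.86 in spermidine arrays. In all, 84 named genes lay within 0.1 units of Nrf1. Nearest to Tfam were Tldc2, Nxpe5 and Tnfrsf25, at most 0.029, 0.030 and 0.031 units away, and 37 named genes lay within 0.1 units. Rab6b, Tldc2 and Nxpe5 were below the background percentile, with signals of at most 6.24, 3.80 and 3.39. Tnfrsf25, a death receptor of T cells, had signals of 6.96 and 7.35 against 6.60 and 6.76 with spermidine. Likeness over 4 arrays is a description only.

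The genes around these regulators were set beside them in lists by role. Each count in a list is to be read against all features, of which 3.38% were higher and 3.64% lower at an unadjusted p under 0.05, and 18.3% higher and 18.4% lower without overlap. The 33 measured upstream regulators and partners of the coactivators had a median log2 difference of 0.02; 0 passed in either direction, and at an unadjusted p under 0.05 5 were higher and 0 lower. In 9 of the 33 (27.3%) the 2 groups were apart with spermidine higher, and in 6 (18.2%) with spermidine lower. With an array left out the median ran from 0.047 to 0.118. The transcription factor Foxo3 had log2 signals of 8.80 and 9.14 in control arrays, against 9.69 in both spermidine arrays, a difference of 0.72 ± 0.23 (SE). Lpin1, a phosphatidate phosphatase and a coactivator partner of PGC-1-alpha, had 11.12 and 11.59 against 11.79 and 12.45 (difference 0.77 ± 0.30, SE). Mtor, the growth kinase, had 9.09 and 8.88 against 9.93 and 9.45 (difference 0.71 ± 0.25, SE), and the retinoid receptor Rxrb 8.23 and 8.09 against 8.62 and 8.88 (difference 0.59 ± 0.23, SE). The fifth was Mef2c, below the background percentile on all 4 arrays. In Foxo3, Lpin1, Mtor and Rxrb the groups did not overlap, with adjusted p-values from 0.637 to 0.689 (limma, Benjamini-Hochberg).

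The AMP-activated kinase, which phosphorylates PGC-1-alpha, had subunits on both sides. Its catalytic subunit gene Prkaa1 had log2 signals of 10.95 and 10.90 without spermidine and 11.41 and 11.36 with it (difference 0.46 ± 0.22, SE). The regulatory subunit gene Prkab1 had 9.36 in both control arrays, against 8.91 and 8.90 with spermidine (difference -0.45 ± 0.22, SE). Groups did not overlap in either gene and neither passed, both with an adjusted p near 0.73 (0.732 and 0.733; limma, Benjamini-Hochberg). A further subunit gene, Prkag1, was also lower without overlap, with 12.22 and 12.36 against 12.07 and 11.96 (difference -0.27 ± 0.22, SE). Prkaa2 lay below the background percentile on all 4 arrays. The deacetylase gene Sirt1, which acts on PGC-1-alpha as well, overlapped between groups, with a difference of -0.09 ± 0.25 (SE). The remaining PGC-1 family coactivator, Pprc1, also overlapped, with a difference of -0.10 ± 0.24 (SE) at signals between 6.16 and 6.53.

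The 22 measured genes that copy and maintain mitochondrial DNA had a median log2 difference of 0.01, with 0 passing and 0 at an unadjusted p under 0.05 in either direction. Without overlap, 4 were higher and 4 lower (18.2% each, as among all features). With an array left out the median ran from -0.11 to 0.12. Slc25a36, a pyrimidine nucleotide carrier, had log2 signals of 12.60 and 12.64 in control arrays, against 13.20 and 12.98 in spermidine arrays (difference 0.47 ± 0.22, SE). Mpv17, an inner membrane protein whose loss depletes mitochondrial DNA, stood at 12.38 and 12.15 against 12.62 and 12.83 (difference 0.46 ± 0.23, SE), and the DNA ligase gene Lig3 at 8.75 and 8.60 against 8.98 and 9.18 (0.40 ± 0.23, SE). The topoisomerase gene Top3a went the other way, with 9.68 and 9.57 against 9.29 and 9.04 (-0.47 ± 0.23, SE). The replicative polymerase gene Polg and the helicase gene Twnk lay below the background percentile on all 4 arrays.

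Partners of Tfam and Polrmt in mitochondrial transcription and RNA processing had a median log2 difference of -0.04 over 30 measured genes, with 0 passing, 0 higher and 2 lower at an unadjusted p under 0.05, and 4 higher (13.3%) and 5 lower (16.7%) without overlap. With an array left out the median ran from -0.18 without control replicate 2 to 0.13 without control replicate 1. The elongation factor gene Tefm overlapped between groups, with log2 signals of 8.52 and 7.73 against 7.75 and 7.81 with spermidine. Fastk, whose mitochondrial form acts on the ND6 transcript, had log2 signals of 12.73 and 12.28 without spermidine and 11.87 and 11.67 with it (difference -0.74 ± 0.25, SE). Trmt10c, a subunit of the mitochondrial RNase P that frees transfer RNAs from the long transcripts, had 9.42 and 9.05 against 8.56 and 8.53 (-0.69 ± 0.24, SE). Pnpt1, a polynucleotide phosphorylase that degrades mitochondrial RNA, had 10.91 and 10.79 against 10.73 and 9.96 (-0.50 ± 0.29, SE), so mainly the second spermidine array was low. Gtpbp3, which modifies mitochondrial transfer RNAs, had 8.19 and 8.64 against 9.09 and 8.89 (0.57 ± 0.25, SE). The transcripts of mitochondrial DNA itself, the product of this machinery, were not analysed here.

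Among classic target genes of NRF-1, GABP and ERR-alpha, 24 of the 30 measured had a difference below 0, against 11305 of the 22206 gene features. Their median was -0.19. None passed, and at an unadjusted p under 0.05 0 were higher and 1 was lower; 8 lay lower without overlap (26.7%, against 18.4% of all features) and 2 higher (6.67%, against 18.3%). Cyc1, which encodes cytochrome c1 of respiratory complex III, had log2 signals of 7.68 and 7.50 in control arrays, against 6.58 and 6.83 in spermidine arrays (difference -0.89 ± 0.23, SE; unadjusted p = 0.00495, adjusted p = 0.637, limma, Benjamini-Hochberg). Idh3a, a citrate cycle enzyme subunit, had 13.26 and 12.71 against 12.68 and 12.30 (-0.49 ± 0.28, SE). Cox7c had 17.04 and 16.87 against 16.82 and 16.48 (-0.31 ± 0.24, SE). Tspo went the other way without overlap, with 9.43 and 9.69 against 9.78 and 9.85 (0.26 ± 0.23, SE). The electron carrier gene Cycs, the textbook NRF-1 target, had 15.31 and 14.56 against 14.71 and 14.40, and its groups overlapped. The median of the list was -0.07 without spermidine replicate 2, -0.09 without control replicate 1, -0.29 without control replicate 2 and -0.33 without spermidine replicate 1, so its size changed with the arrays used. That median was -0.12 after further quantile normalization, -0.15 after cyclic loess and -0.21 after median centring.

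Targets of PPAR-alpha had a median log2 difference of 0.00 (-0.0041) over 26 measured genes, with 0 passing and, at an unadjusted p under 0.05, 1 higher and 0 lower. Without overlap 5 were higher (19.2%) and 4 lower (15.4%), and with an array left out the median ran from -0.076 to 0.0895. Of the 26 genes, 13 lay below the background percentile on all 4 arrays, where differences are compressed. The median near 0 is therefore no measure of a lack of change in those genes. The one higher gene was Plin2, a coat protein of lipid droplets, with log2 signals of 7.77 and 7.61 in control arrays, against 8.51 and 8.57 in spermidine arrays (difference 0.85 ± 0.22, SE; adjusted p = 0.637, limma, Benjamini-Hochberg). The fatty acid oxidation genes Acadvl (10.01 and 10.31 against 10.53 and 10.78) and Acadm (8.96 and 8.95 against 9.12 and 9.40) were higher without overlap and did not pass. Acaa2, the thiolase of the same pathway, had 11.79 and 11.75 against 11.62 and 10.94. Cpt1a, the carnitine palmitoyltransferase that admits fatty acids to the mitochondrion, overlapped between groups (difference -0.19 ± 0.27, SE).

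**Figure D3:**
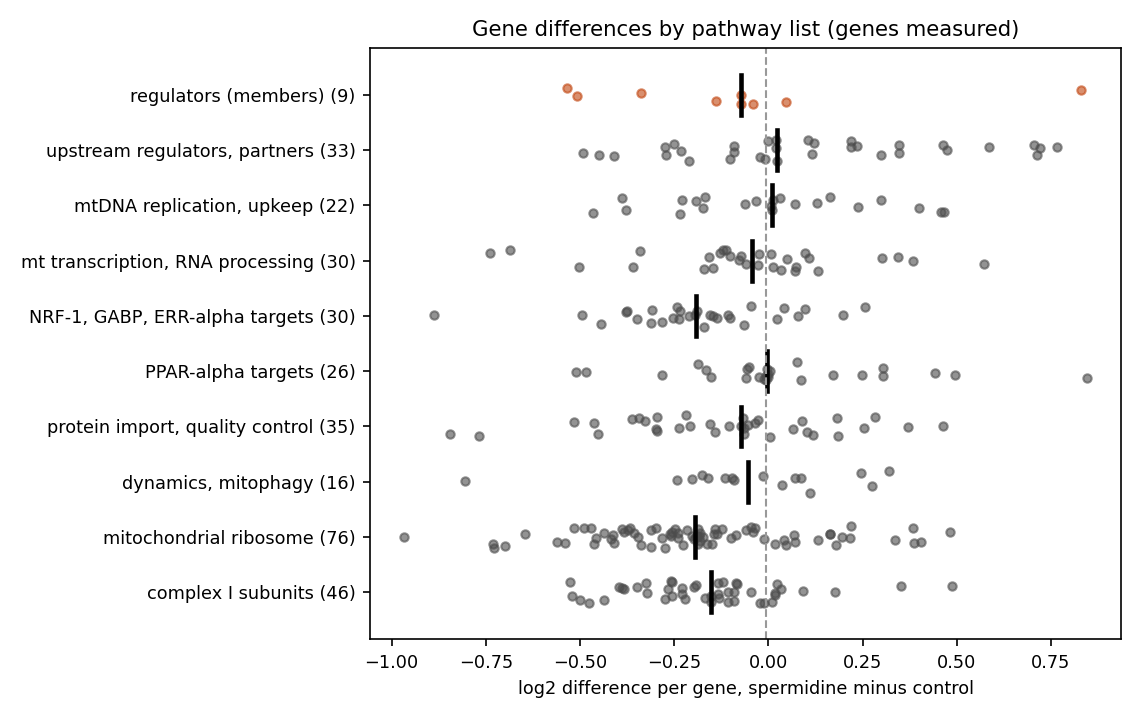
Log2 difference, spermidine minus control, of each measured gene (dots; horizontal axis) in the regulators (orange) and in 9 lists of related genes (grey), with the number of genes in brackets; black bars are list medians and the dashed line the median of all gene features (-0.01). In the deposited values the medians of the NRF-1, GABP and ERR-alpha targets (-0.19), the mitochondrial ribosome (-0.19) and complex I subunits (-0.15) lie furthest to the left. Further quantile normalization or cyclic loess made each of these medians smaller in size, and median centring made each larger.

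Mitochondrial protein import and quality control had a median of -0.07 over 35 measured genes, with 0 passing, 2 lower and 0 higher at an unadjusted p under 0.05, and 9 lower (25.7%) and 5 higher (14.3%) without overlap. That median was 0.0016 without control replicate 1, -0.18 without control replicate 2 and -0.20 without spermidine replicate 1. Timm8a1, a chaperone of the intermembrane space, had log2 signals of 12.46 and 11.71 against 11.58 and 10.90 with spermidine (difference -0.85 ± 0.33, SE), and the translocase subunit gene Timm50 9.07 and 8.67 against 8.43 and 7.77 (-0.77 ± 0.29, SE). Lonp1, the matrix protease that degrades TFAM, had 10.28 and 10.26 against 9.88 and 9.63 (-0.52 ± 0.23, SE). Tomm5, a small subunit of the outer membrane translocase, had 10.81 and 10.58 against 11.16 in both spermidine arrays (0.46 ± 0.23, SE). The 16 genes of mitochondrial dynamics and mitophagy had a median of -0.05 (-0.024 without control replicate 2 and 0.025 without spermidine replicate 2), with 0 passing and 1 lower at an unadjusted p under 0.05, the mitophagy receptor gene Bnip3 (11.63 and 10.95 against 10.89 and 10.08). The fusion gene Mfn1 was higher without overlap (9.73 and 10.14 against 10.35 and 10.17).

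The structural genes that these regulators serve were compared as the most similar groups. Subunits of the mitochondrial ribosome had a median of -0.19 over 76 genes, of which 20 lay lower (26.3%) and 6 higher (7.89%) without overlap. The 46 complex I subunits had a median of -0.15, with 14 lower (30.4%) and 1 higher (2.17%). Among all features these shares were 18.4% and 18.3%. In both groups 0 genes passed (limma), and at an unadjusted p under 0.05 5 ribosome genes and 0 complex I genes were lower and 0 of either were higher. Leaving out single arrays moved these medians between -0.36 and -0.03 for the ribosome and between -0.35 and -0.03 for complex I. Further quantile normalization gave -0.16 for the ribosome and -0.13 for complex I. Cyclic loess gave -0.17 and -0.12, and median centring -0.21 and -0.17. How far the signal level of these genes enters their medians was not tested. The mean log2 signal of the complex I list was 10.10 and 9.79 in control arrays, against 9.87 and 9.70 in spermidine arrays, so its groups overlapped, and the same held for the ribosome. The difference between the regulators and these lists was not tested. The nuclear RNA polymerases, set beside Polrmt, had a median of 0.26 over 5 measured catalytic subunit genes, with 0 passing; Polr3a had 8.53 and 8.51 against 8.94 and 8.91.

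**Figure D4:**
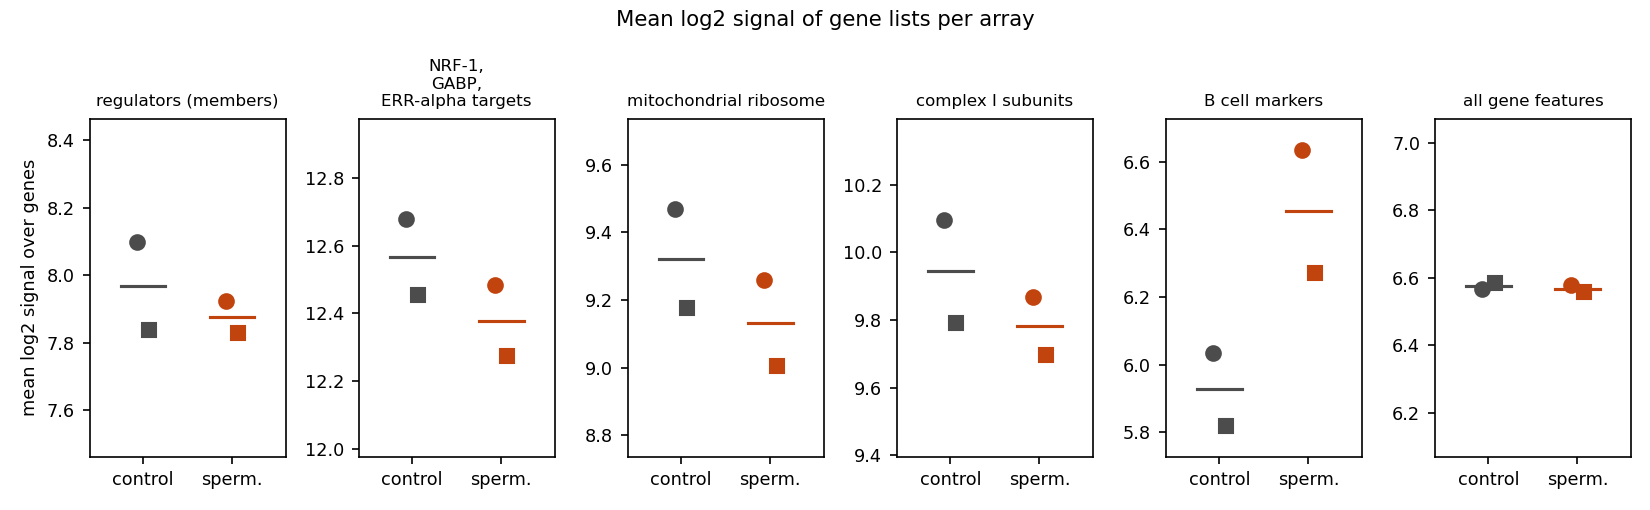
Mean log2 signal over the genes of a list (vertical axis, a span of 1 unit in every panel) per array, in control arrays (grey) and spermidine arrays (orange, marked sperm.); circles are replicate 1, squares replicate 2, and bars group means. Replicate 1 lies above replicate 2 within each group in the first 5 panels, and of these 6 panels the groups are apart in that of the B cell markers, at 6.03 and 5.82 against 6.64 and 6.27.

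The arrays themselves were alike: medians over gene features ran from 5.13 to 5.25, and correlations across features between pairs of arrays from 0.989 to 0.994. The labelled cell type showed in its markers, since 11 of 11 measured T cell markers were above background on all 4 arrays, among them Cd8b1 with log2 signals of 16.95, 17.19, 16.81 and 16.66. The T cell markers were slightly lower with spermidine, by a median of -0.17, with 6 of 11 lower and 1 higher without overlap (54.5% and 9.09%, against 18.4% and 18.3% of all features) and 0 passing, adjusted or at an unadjusted p under 0.05 (limma). Their mean log2 signal was 14.22 and 14.20 in control arrays, against 14.05 and 14.12 in spermidine arrays, and their median was -0.10 without control replicate 1 or spermidine replicate 1. All 11 measured B cell markers had a difference above 0 (median 0.35), against 10901 of the 22206 gene features. Of these markers 6 were higher without overlap (54.5%, against 18.3% of all features), and 5 lay below the background percentile on all 4 arrays. None of them passed (limma), and 3 were higher at an unadjusted p under 0.05. Their median was 0.14 without spermidine replicate 1, 0.56 without spermidine replicate 2 and 0.62 without control replicate 1. Cd180 had 7.13 and 6.48 against 8.19 and 8.49, and Cd79a 6.44 and 6.50 against 7.40 and 7.15. Of the CD4 T cell markers 2 were measured, with a median of 0.35 (0.16 without spermidine replicate 2 and 0.53 without spermidine replicate 1). They did not go the same way. Zbtb7b had 6.32 and 6.88 against 7.32 and 7.41, while Cd4 itself overlapped, with 7.11 and 6.84 against 6.59 and 7.24 (difference -0.06 ± 0.28, SE). The 5 measured platelet and red cell markers had a median of 0.33 (0.072 without spermidine replicate 2 and 0.11 without control replicate 1). Without overlap 3 were higher (60%, against 18.3% of all features) and 0 lower, and 4 lay below background on all 4 arrays. The 1 above it, Itga2b, had 6.46 and 6.61 against 6.61 and 6.67 (difference 0.10 ± 0.22, SE). Ppbp, at background, had 3.05 and 3.99 against 4.66 and 5.95. Pf4 and Gp9 overlapped between groups, Gp9 with a difference of -0.06. Of the 12 measured macrophage and monocyte markers, 11 lay below background on all 4 arrays and the median difference was 0.04. The dendritic cell, neutrophil and NK cell markers had medians of 0.069, 0.14 and 0.11 over 6, 4 and 3 genes, of which 6, 4 and 1 lay below background on all 4 arrays. The NK cell markers did not go the same way. Eomes had 13.57 and 12.46 against 13.22 and 11.82 (difference -0.50 ± 0.50, SE), and Ncr1, at background, had a difference of 0.44 ± 0.25 (SE). Which cells gave the Eomes signal was not tested. Spiked-in control features, 8 in number, were on average 0.44 higher with spermidine. The part of these in the differences of the regulators was not tested. In a culture of mixed cells, fewer cells of a type and less RNA per cell cannot be told apart. Because the labels tie the replicates to no animal or culture, the p-values measure only the spread between these samples, which may be technical.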

How the data were processed

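The authors deposited a log2 signal for each feature; the submitters' processing notes name Affymetrix Expression Console and RMA, which corrects background, normalizes by quantiles and summarises probes, without versions. The log2 base was inferred from the values, whose array maxima ran from 19.7 to 19.9. The folds given rest on that inferred scale. No source used here gives the genome build behind the array annotation. Of 28846 features, 6640 controls were left out and 22206 gene features tested; 19572 had 1 symbol, 0 several and 2634 none, and all 19572 were found by Entrez identifier in a RefSeq table of GRCm38.p6, with 0 symbols changed. Groups and replicate numbers come from the sample titles.

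The 2 groups were compared with limma 3.58.1 under R 4.3.3, by lmFit and then eBayes (prior degrees of freedom 5.96, residual 2). Tests were two-sided, and p-values of all 22206 features were adjusted by Benjamini-Hochberg and called at 0.05. The test was checked on simulated data with changes larger than the difference of any member. That check does not show how well differences of the members' size would be found. No permutation test was run, since the smallest p an exact one allows here is 0.333. A gene stood for its brightest feature, and list genes without one were not analysed here. Arrays have no depth; the precision is limited by how many there are.

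The members and lists were chosen with earlier results of these data known. Named by rule were all members and, per list, up to 4 genes with the largest statistics among those without overlap whose higher group mean reached the background percentile of 6.35. Likewise, for up to 2 members, the 3 genes nearest in pattern were named. Not every list gene that met the rule is printed. Cycs, Cpt1a, Tefm, Polg, Twnk, Gabpb1, Gabpb2, Prkaa1, Prkab1, Sirt1, Pprc1, Mef2c and Ppbp were added for their roles after values were seen. Prkaa2, Prkag1, Cd4, Pf4 and Gp9 were added in the same way. Motifs were searched as plain letters in RefSeq promoters. Alternatives were other priors, array weights, 3 further normalizations, 2 filters, 1 feature per symbol, a replicate block and leaving out each array.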

Additional observations from a re-analysis of the deposited data

How the results depend on the processing

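The members passing numbered 0 in every alternative run. The features passing in all, 0 as reported, became 1 with a prior variance following intensity, median centring, cyclic loess, features above the median level or above the background percentile, and the replicate block; that 1 feature was in no case a member. Over 112 values of members in 13 alternatives, 104 kept their sign and 8 turned, all with an array left out: Ppara 0.20 and Tfb1m 0.38 without control replicate 1, Ppargc1a 0.013 and Tfb2m -0.052 without control replicate 2, Ppargc1b 0.089 without spermidine replicate 1, and Ppargc1a 0.16, Tfb1m 0.13 and Tfb2m -0.0925 without spermidine replicate 2. With an array left out the values ran from -0.24 to 0.16 for Ppargc1a, from -0.37 to 0.089 for Ppargc1b, from -0.34 to 0.20 for Ppara, from -0.52 to 0.38 for Tfb1m and from -0.0925 to 0.19 for Tfb2m. The median of the measured members ran from -0.31 to -0.09 with single arrays left out, and was -0.24 among features above the background percentile. The members lower without overlap numbered 2 to 5 and those higher 1 to 4 with an array left out. Groups of 2 and 1 arrays overlap less readily than groups of 2. The share of all features was not counted in those settings, so nothing is read from these counts. Above the background percentile 0 members were higher, since Polrmt was filtered out. With all 4 arrays the adjusted p-values of the alternatives ran from 0.429 to 0.754 for Nrf1, from 0.448 to 0.769 for Tfam and from 0.323 to 0.729 for Polrmt, and without 1 array they were at least 0.500, 0.689 and 0.643 (limma, Benjamini-Hochberg). Replicate numbers name no shared animal; deviations of same-numbered arrays correlated at 0.21 across features, and the replicate block called 0 members. With no measure of depth, the number of arrays and the background level limit what can be seen.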
